A study of Homo sapiens with 12 samples.

Results

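The genes described here are 10 genes around the transcriptional coactivators YAP and TAZ: 8 target genes of YAP and of its DNA-binding partners, the TEAD factors (ANKRD1, CCN1, CCN2, AMOTL2, LATS2, AJUBA, F3 and AXL), and the genes of the coactivators themselves, YAP1 and WWTR1, the latter encoding TAZ. They were matched by symbol in the count tables, and all 10 were found among the 46350 named genes. The list was chosen from the readout, because ANKRD1 was far lower in SKOV3/DDP cells treated with paeonol (PAE) than in untreated SKOV3/DDP cells. The comparison of PAE-treated and untreated SKOV3/DDP is therefore given as a description, with no test, for all 10 genes.

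YAP and TAZ carry no DNA-binding domain and act on chromatin through TEAD factors. In the Hippo pathway the kinases MST1 and MST2 activate LATS1 and LATS2, which phosphorylate YAP and TAZ and keep them out of the nucleus. Cell density, the actin cytoskeleton and attachment to matrix all act on this relay, and several of its targets, LATS2 and AMOTL2 among them, feed back on the coactivators. In many epithelial cancers ANKRD1, CCN1 and CCN2 are read as a measure of YAP and TAZ activity. Messenger RNA shows neither the phosphorylation nor the location of YAP or TAZ.

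RNA sequencing covered 12 libraries in 4 groups of 3: untreated SKOV3, SKOV3 with PAE, untreated SKOV3/DDP and SKOV3/DDP with PAE. SKOV3 is an established epithelial ovarian cancer line, which the study treats as chemosensitive beside SKOV3/DDP. SKOV3/DDP is the cisplatin-resistant line which the study's methods describe as developed from SKOV3. Paeonol is a phenolic compound of tree peony root. No other allele or agent is named for any group, and PAE dose, treatment time and library batch are not given in the labels. The design text speaks of biological and experimental triplicates without saying which of them the 3 libraries of a group are, so p-values measure the spread between these libraries, which may be technical in part.

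Library totals ranged from 14610008 to 18263479 counts. The 3 untreated SKOV3 libraries stood apart from the other 9: they held between 17951 and 18240 genes with a count against 21469 to 23194, and their deviations from the gene means followed the GC content of the transcript, with a Spearman correlation across 15090 genes of 0.69 to 0.70 against −0.57 to −0.34 in the others. Untreated SKOV3 is 1 arm of 2 of the comparisons, so most single-gene results of these are followed by values from a second fit. In that fit, named with the trend removed, the dependence of every library on GC content and transcript length was taken out. The comparisons of the PAE-treated lines and of PAE in SKOV3/DDP do not contrast these libraries, which enter only the shared filter, scaling and estimate of the spread. All 5 epithelial markers averaged 1 CPM or more in every group. Their summed level, mostly KRT8 and KRT18, moved with PAE in both lines. In SKOV3 it ranged from 4621 to 5228 CPM untreated and from 676 to 1344 CPM with PAE. In SKOV3/DDP the ranges were 10644 to 12864 and 2337 to 3346 CPM. The markers did not all move alike: in SKOV3 the means of EPCAM (1.26 to 6.33 CPM) and CDH1 (7.63 to 53.8 CPM) were higher with PAE. Those of KRT8, KRT18 and KRT19 were lower. All marker levels are given without removal of the trend. The intestinal markers and some of the ovarian markers did not follow the labels in SKOV3/DDP. Of 6 intestinal epithelial markers (CDX1, CDX2, VIL1, LGALS4, CDH17 and GPA33), 5 averaged 1 or more CPM (TMM-normalized counts scaled to library size, as used throughout) in untreated and in PAE-treated SKOV3/DDP, where their summed level ranged from 532 to 576 and from 163 to 249 CPM. In SKOV3 none of the 6 reached 1 CPM, and the sums ranged from 0.25 to 0.89 CPM untreated and from 0.16 to 0.46 CPM with PAE. Of 5 ovarian and Mullerian markers, 4 reached 1 CPM in the SKOV3 groups and 2 in the SKOV3/DDP groups, in which WFDC2 had no counts. MSLN was higher in SKOV3/DDP, at means of 388 CPM untreated and 297 CPM with PAE, against 149 and 43.6 CPM in SKOV3. Their summed level ranged from 434 to 518 CPM in untreated SKOV3 and from 135 to 299 CPM with PAE. In SKOV3/DDP the sums ranged from 340 to 436 CPM untreated and from 250 to 368 CPM with PAE. ERBB2, which SKOV3 carries in amplified form, ranged from 284 to 326 CPM in untreated SKOV3, 46.3 to 86.6 CPM in SKOV3 with PAE, 74.3 to 119 CPM in untreated SKOV3/DDP and 24.3 to 41.4 CPM in SKOV3/DDP with PAE, so it moved with PAE as well as between the lines. The part of the intestinal and ovarian markers in the line comparisons, and that of the epithelial markers and ERBB2 in the PAE comparisons, was not tested. The markers of other cell types were lower: the summed fibroblast markers ranged from 0.39 to 17.2 CPM over the 12 libraries, the endothelial markers from 0.34 to 10.6 CPM, and the leukocyte markers from 1.65 to 72.5 CPM, mostly CD14, with PTPRC at a mean of at most 0.03 CPM in any group.

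ANKRD1 and CCN2 were the only 2 of the 9 genes searched with more than 1 match to the TEAD core letters in their promoter windows. Their upstream sequences are shown for this reason. The window held 250 bases before and 50 bases after each RefSeq gene start on GRCh38.p14. Of the 10 genes, 9 matched an entry, with 13 windows in all. CCN1 matched none and was not searched. The letters GGAATG, or CATTCC on the other strand, were found in 7 of these 13 windows, which belong to 7 genes. Over all 35116 windows they were found in 14.0%, and at least 2 times in 1.37%. ANKRD1 (minus strand, chr10:90921088-90921337) and CCN2 (minus strand, chr6:131951373-131951622) are printed 5′ to 3′ along the gene as the 250 bases before the start, with these letters in capitals.
ANKRD1: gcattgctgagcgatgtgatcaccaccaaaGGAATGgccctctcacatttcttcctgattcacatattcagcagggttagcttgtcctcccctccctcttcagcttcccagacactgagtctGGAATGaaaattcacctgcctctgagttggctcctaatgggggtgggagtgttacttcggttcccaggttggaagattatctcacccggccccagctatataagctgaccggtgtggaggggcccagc
CCN2: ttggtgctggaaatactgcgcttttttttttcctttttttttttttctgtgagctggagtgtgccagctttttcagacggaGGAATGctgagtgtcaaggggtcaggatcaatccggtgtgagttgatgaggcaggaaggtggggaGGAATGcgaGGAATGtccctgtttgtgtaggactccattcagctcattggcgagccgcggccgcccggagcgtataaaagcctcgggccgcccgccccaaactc
The ANKRD1 matches began 220 and 128 bases before the start, and those of CCN2 169, 104 and 95 bases before it. AMOTL2, AJUBA, AXL and YAP1 each had 1 match before the start, LATS2 had 1 at position 10 after it, and F3 and WWTR1 had none. For AMOTL2, AJUBA and AXL the match lay in only 1 of their 2 windows. The AP-1 letters TGANTCA, which read the same on the other strand, were found in 7.71% of all windows and in those of ANKRD1 (1 match) and F3 (2 matches). They overlapped none of the TEAD letters. A match is a stretch of letters only, and binding was not measured.

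**Figure D1:**
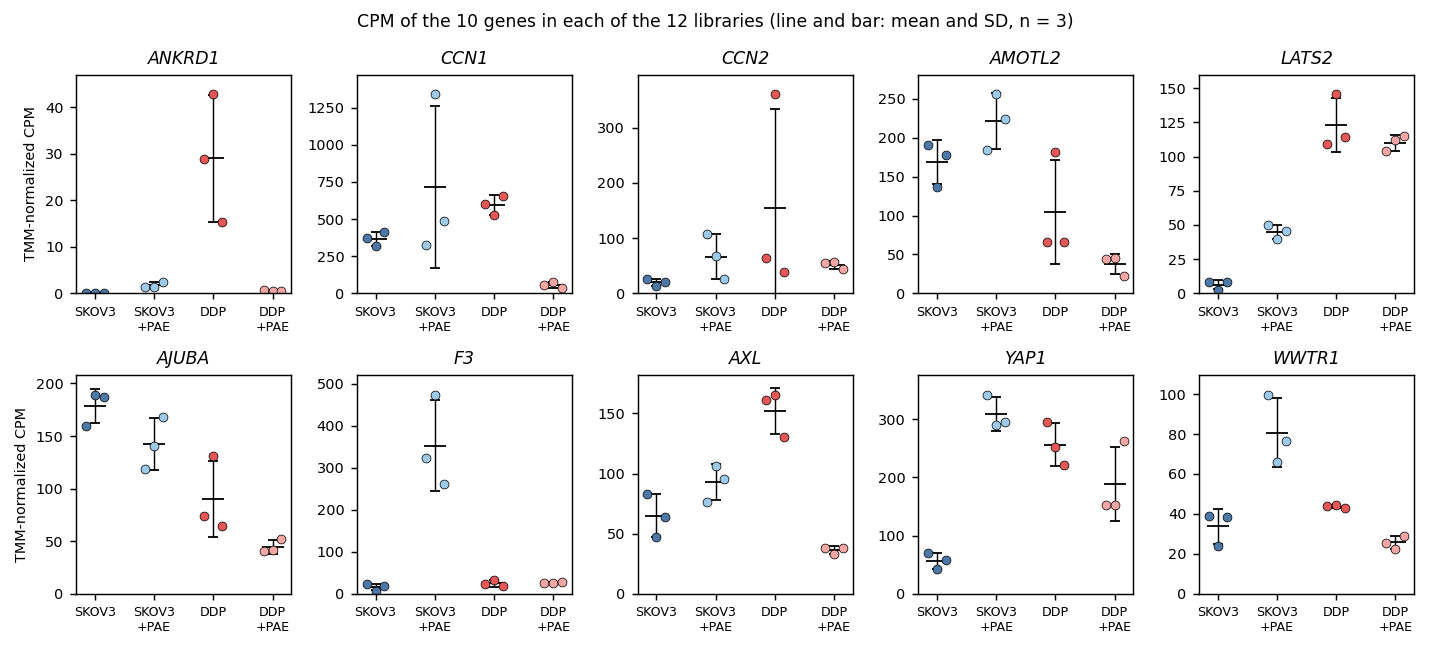
TMM-normalized CPM (vertical axis, linear, 1 scale per gene) of the 10 genes in each of the 12 libraries, by group on the horizontal axis (DDP stands for SKOV3/DDP). Points are libraries, and the line and bar are the mean and SD (n = 3). ANKRD1 stood at 15.4 to 42.7 CPM in untreated SKOV3/DDP and below 2.5 CPM elsewhere, F3 was high in PAE-treated SKOV3, and single libraries stood out for CCN1, CCN2, AMOTL2 and AJUBA.

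ANKRD1 encodes an ankyrin repeat protein of muscle sarcomere and nucleus and is a direct YAP and TEAD target (NCBI Gene 27063, chr10:90912096-90921087, minus strand). No count was found in the 3 untreated SKOV3 libraries, which allows a level of up to 0.0862 CPM (3 counts over the group, covering counting error only). PAE-treated SKOV3 had 1.39, 1.32 and 2.47 CPM in replicates 1, 2 and 3, untreated SKOV3/DDP had 28.8, 42.7 and 15.4 CPM, and PAE-treated SKOV3/DDP had 0.74, 0.52 and 0.44 CPM. The libraries of no 2 groups overlapped. In bulk RNA, fewer cells with the transcript and less transcript per cell cannot be told apart. With PAE, ANKRD1 was 50.5-fold lower in SKOV3/DDP (log2 fold change −5.66, SE 0.49), the contrast that chose the list. In SKOV3 it rose with PAE from no counts to 97 over 3 libraries, at least 20.1-fold higher on that bound. The adjusted p was 1.35e-05 in edgeR's quasi-likelihood test. The fitted log2 fold change, which depends on the prior count, was 7.86, and 7.55 with the trend removed (adjusted p = 0.000612). Untreated SKOV3/DDP had 1428 counts, at least 335-fold above SKOV3, and with PAE the level in SKOV3/DDP was 3.03-fold below that in SKOV3, both given without a test. The ANKRD1 transcript has 43.3% GC. The lower bounds against untreated SKOV3 make no allowance for the GC trend of those libraries.

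CCN1 and CCN2 encode secreted matricellular proteins that bind integrins, and both are early targets of YAP and TEAD. For CCN1 (chr1:85580761-85583950, plus strand), untreated SKOV3 had 372, 316 and 413 CPM, SKOV3 with PAE 327, 1339 and 486, untreated SKOV3/DDP 601, 527 and 657, and SKOV3/DDP with PAE 59.7, 76.2 and 37.5. All 3 PAE-treated SKOV3/DDP libraries lay below every other library, and 1 library of PAE-treated SKOV3 stood far above the remaining 2. With PAE, CCN1 was 10.3-fold lower in SKOV3/DDP (log2 fold change −3.36, SE 0.44), given as a description. Between the PAE-treated lines it was 12.4-fold lower in SKOV3/DDP (log2 fold change −3.63, SE 0.44, adjusted p = 6.46e-06), and without PAE-treated SKOV3 replicate 2 the log2 fold change was −2.83. In SKOV3 the rise with PAE (log2 fold change 0.97, SE 0.40, adjusted p = 0.0392) rested on that replicate, without which it was 0.15 (adjusted p = 0.647). The call was also lost without SKOV3 replicate 1, 2 or 3 (adjusted p = 0.0782, 0.109 and 0.0603). With the trend removed the rise was 1.23 (adjusted p = 0.0212). The untreated lines differed by a log2 fold change of 0.70 (SE 0.40, adjusted p = 0.118). Without PAE-treated SKOV3 replicate 2, which adds to the estimate of the spread, the adjusted p was 0.0297 at 0.66. With the trend removed the untreated lines differed by 1.06 (adjusted p = 0.0311), which passed the test.

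For CCN2 (chr6:131948176-131951372, minus strand), untreated SKOV3 had 25.9, 13.0 and 20.4 CPM, SKOV3 with PAE 107, 66.8 and 26.4, untreated SKOV3/DDP 64.2, 360 and 38.8, and SKOV3/DDP with PAE 54.9, 56.7 and 43.8. Every untreated SKOV3 library lay below all the other libraries, and untreated SKOV3/DDP replicate 2 was the highest of the 12. CCN2 was 7.80-fold higher in untreated SKOV3/DDP than in SKOV3 (log2 fold change 2.96, SE 0.68, adjusted p = 0.000936), and without that replicate the log2 fold change was 1.39. With PAE in SKOV3, CCN2 was 3.37-fold higher (log2 fold change 1.75, SE 0.66, adjusted p = 0.0244). This call was lost without SKOV3 replicate 2 or 3 or PAE-treated SKOV3 replicate 1 (adjusted p = 0.085, 0.0565 and 0.117). With the trend removed, CCN2 was higher by 2.31 with PAE in SKOV3 (adjusted p = 0.011). It was then higher by 3.59 in untreated SKOV3/DDP than in SKOV3 (adjusted p = 0.000443). In SKOV3/DDP the log2 fold change with PAE was −1.58 (SE 0.64) with overlapping libraries, and it was 0.0056 without untreated SKOV3/DDP replicate 2. CCN2 and CCN1, close in sequence and in function, thus had unlike values with PAE in SKOV3/DDP, and that difference was not tested. The PAE-treated lines gave −0.37 (SE 0.63, adjusted p = 0.649).

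AMOTL2, LATS2 and AJUBA act inside the pathway as well as being its targets: AMOTL2 is an angiomotin that holds YAP at junctions, LATS2 is the kinase that phosphorylates YAP and TAZ, and AJUBA is a LIM protein that binds and restrains LATS kinases. For AMOTL2 (chr3:134355345-134375417, minus strand), untreated SKOV3 had 191, 136 and 178 CPM, SKOV3 with PAE 184, 256 and 225, untreated SKOV3/DDP 66.0, 182 and 65.5, and SKOV3/DDP with PAE 44.5, 44.9 and 22.7. The 3 PAE-treated SKOV3/DDP libraries were the lowest of the 12. The log2 fold change with PAE in SKOV3/DDP was −1.48 (SE 0.37), and −0.82 without untreated SKOV3/DDP replicate 2. AMOTL2 was 5.92-fold lower in SKOV3/DDP than in SKOV3 when both had PAE (log2 fold change −2.57, SE 0.38, adjusted p = 5.11e-05). Neither PAE in SKOV3 (0.39, SE 0.36, adjusted p = 0.334) nor the untreated lines (−0.69, SE 0.36, adjusted p = 0.0915) passed the test, and without untreated SKOV3/DDP replicate 2 the untreated lines did (−1.35, adjusted p = 0.000723). With the trend removed the 2 values were 1.62 (adjusted p = 0.00251) and 0.40 (adjusted p = 0.334).

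For LATS2 (chr13:20973036-21061586, minus strand), untreated SKOV3 had 8.25, 2.56 and 8.48 CPM, SKOV3 with PAE 49.8, 39.5 and 45.5, untreated SKOV3/DDP 109, 145 and 114, and SKOV3/DDP with PAE 104, 112 and 115. The 2 SKOV3/DDP groups overlapped each other and lay above all SKOV3 libraries, and PAE-treated SKOV3 lay above untreated SKOV3. LATS2 was 19.1-fold higher in untreated SKOV3/DDP than in SKOV3 (log2 fold change 4.26, SE 0.35, adjusted p = 3.31e-08) and 2.45-fold higher with PAE (1.29, SE 0.31, adjusted p = 0.00237). It rose 6.99-fold with PAE in SKOV3 (log2 fold change 2.80, SE 0.33, adjusted p = 1.78e-06). With the trend removed these values were 4.28, 1.29 and 2.89. The log2 fold change with PAE in SKOV3/DDP was −0.16 (SE 0.30).

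For AJUBA (chr14:22971177-22982551, minus strand), untreated SKOV3 had 160, 189 and 187 CPM, SKOV3 with PAE 119, 140 and 168, untreated SKOV3/DDP 74.3, 131 and 64.0, and SKOV3/DDP with PAE 40.2, 41.6 and 51.8. Without removal of the trend, AJUBA was the only one of the 10 genes with its highest group mean in untreated SKOV3. AJUBA was lower in SKOV3/DDP than in SKOV3 both untreated (log2 fold change −0.99, SE 0.26, adjusted p = 0.0023) and with PAE (−1.68, SE 0.26, adjusted p = 7.51e-05). The values with PAE were −0.33 (SE 0.25, adjusted p = 0.254) in SKOV3 and −1.01 (SE 0.26) in SKOV3/DDP, the latter without overlap and −0.64 without untreated SKOV3/DDP replicate 2. The SKOV3 value turned to 0.087 with the trend removed and to 0.56 when scaled by library size only. With the trend removed the untreated lines differed by −0.62 (adjusted p = 0.0368).

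F3 and AXL encode surface proteins, F3 the tissue factor that starts coagulation and AXL a receptor tyrosine kinase of the TAM family. For F3 (chr1:94529173-94541759, minus strand), untreated SKOV3 had 22.3, 6.73 and 19.2 CPM, SKOV3 with PAE 323, 474 and 262, untreated SKOV3/DDP 22.3, 33.2 and 18.5, and SKOV3/DDP with PAE 25.4, 25.0 and 27.9. PAE-treated SKOV3 stood above all the other libraries, and the remaining 3 groups lay between 6.73 and 33.2 CPM. F3 rose 22.0-fold with PAE in SKOV3 (log2 fold change 4.46, SE 0.40, adjusted p = 1.13e-07), and by 3.00 on the log2 scale with the trend removed. Between the PAE-treated lines it was 13.5-fold lower in SKOV3/DDP (log2 fold change −3.76, SE 0.39, adjusted p = 1.3e-06). In SKOV3/DDP the log2 fold change with PAE was 0.08 (SE 0.35). The untreated lines differed by 0.62 (SE 0.36, adjusted p = 0.123), which passed the test without SKOV3 replicate 1 (0.93, adjusted p = 0.0428) and was −0.68 with the trend removed.

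For AXL (chr19:41219223-41261766, plus strand), untreated SKOV3 had 82.8, 47.0 and 64.2 CPM, SKOV3 with PAE 76.7, 106 and 95.2, untreated SKOV3/DDP 161, 166 and 130, and SKOV3/DDP with PAE 38.4, 32.7 and 38.2. The order of the groups turned with treatment: SKOV3/DDP was the higher line without PAE and the lower line with it, and no library of one line overlapped those of the other within a treatment. AXL was 2.36-fold higher in untreated SKOV3/DDP than in SKOV3 (log2 fold change 1.24, SE 0.23, adjusted p = 0.000137) and 2.55-fold lower with PAE (−1.35, SE 0.23, adjusted p = 0.000164). With the trend removed these were 1.88 and −1.31. In SKOV3/DDP the log2 fold change with PAE was −2.06 (SE 0.23), a 4.18-fold lower level. The rise with PAE in SKOV3 was small (0.52, SE 0.23, adjusted p = 0.0482) and was lost in 10 of the 12 fits that left out a library, at 0.34 to 0.53 (adjusted p from 0.0505 to 0.188); only those without SKOV3 replicate 1 or PAE-treated SKOV3 replicate 1 kept it. The trend-free value was 1.21 (adjusted p = 6.8e-05).

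YAP1 and WWTR1 encode YAP and TAZ, which share the TEAD-binding and WW domains. For YAP1 (chr11:102109957-102233424, plus strand), untreated SKOV3 had 70.0, 42.2 and 58.3 CPM, SKOV3 with PAE 342, 290 and 295, untreated SKOV3/DDP 295, 252 and 221, and SKOV3/DDP with PAE 153, 152 and 262. Untreated SKOV3 lay below all the other libraries, whose 3 groups overlapped in turn. The log2 fold change was 2.44 (SE 0.26, adjusted p = 6.29e-07) with PAE in SKOV3 and 2.17 (SE 0.26, adjusted p = 1.72e-06) between the untreated lines, but YAP1 has a transcript of 43.5% GC and with the trend removed these values were 0.27 (adjusted p = 0.192) and 0.06 (adjusted p = 0.743). Between the PAE-treated lines YAP1 was 1.64-fold lower in SKOV3/DDP (−0.71, SE 0.25, adjusted p = 0.026), a call lost without PAE-treated SKOV3 replicate 1 or PAE-treated SKOV3/DDP replicate 1 or 2 (adjusted p = 0.0678, 0.103 and 0.0994). PAE in SKOV3/DDP gave −0.44 (SE 0.25), with overlap.

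For WWTR1 (chr3:149517235-149724788, minus strand), untreated SKOV3 had 38.9, 23.7 and 38.4 CPM, SKOV3 with PAE 99.7, 65.9 and 76.4, untreated SKOV3/DDP 43.9, 44.3 and 42.8, and SKOV3/DDP with PAE 25.4, 22.6 and 28.99. PAE-treated SKOV3 was the highest group, and its libraries overlapped no other. WWTR1 was 3.14-fold lower in PAE-treated SKOV3/DDP than in PAE-treated SKOV3 (log2 fold change −1.65, SE 0.23, adjusted p = 2.93e-05; −1.61 with the trend removed). The rise with PAE in SKOV3 (1.26, SE 0.23, adjusted p = 0.000148) turned to a fall of −1.38 (adjusted p = 1.28e-05) with the trend removed, and the untreated lines went from 0.38 (SE 0.23, adjusted p = 0.141) to −2.10 (adjusted p = 8.76e-08). WWTR1 had the lowest transcript GC content of the 10 genes, 40.9%. PAE in SKOV3/DDP gave −0.77 (SE 0.23) without overlap. WWTR1 overlaps the antisense gene WWTR1-AS1, whose mean was 0.44 CPM and at most 1.33 CPM; the strand of counting is not given in the sources used here, so reads in the overlap cannot be told apart.

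Per kilobase of transcript, CCN1 was the most abundant of the 10 genes in 3 of the 4 groups, at mean levels of 161 CPM per kb in SKOV3, 315 in PAE-treated SKOV3 and 261 in SKOV3/DDP. In SKOV3/DDP with PAE, YAP1 had 30.4 CPM per kb and CCN1 25.4. YAP1 had a higher mean than WWTR1 on this scale in all 4 groups, at 9.15 against 5.82 CPM per kb in SKOV3, 49.8 against 14.0 in SKOV3 with PAE, 41.2 against 7.56 in SKOV3/DDP and 30.4 against 4.44 in SKOV3/DDP with PAE. F3, at 154 CPM per kb, ranked after CCN1 in PAE-treated SKOV3. The lowest group mean was in untreated SKOV3 for 5 genes and in PAE-treated SKOV3/DDP for the other 5. The highest was in PAE-treated SKOV3 for 5, in untreated SKOV3/DDP for 4 and in untreated SKOV3 for 1. All levels of this paragraph are given without removal of the trend. With the trend removed, the lowest place of YAP1 and of F3 in untreated SKOV3 was not kept by the test (YAP1 0.27 with PAE and 0.06 between the untreated lines, F3 −0.68 between the untreated lines). LATS2 and CCN2 stayed higher in both comparisons.

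**Figure D2:**
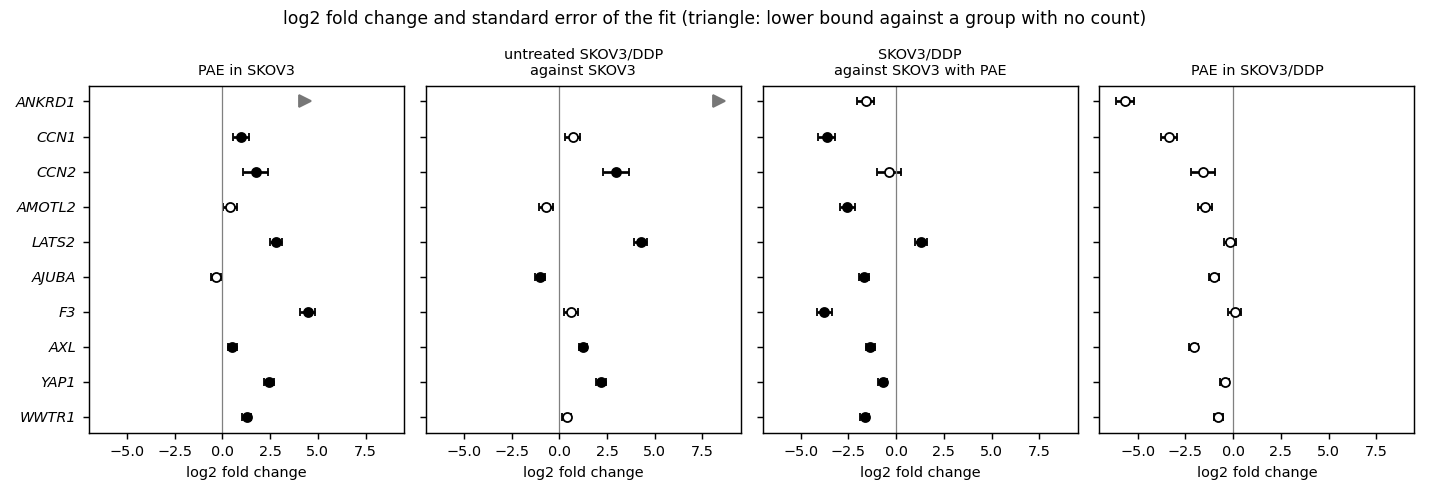
Log2 fold change (horizontal axis) of each gene in the 4 comparisons, with bars for the standard error of the fit (3 libraries per group). Filled circles passed an adjusted p of 0.05, open circles did not or were not tested (PAE in SKOV3/DDP, and ANKRD1 between the lines), and triangles mark lower bounds for ANKRD1 against untreated SKOV3, which had no counts. With PAE, 7 genes were lower in SKOV3/DDP than in SKOV3 by the test and LATS2 was higher.

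SKOV3 with and without PAE gives the levels of these genes with treatment in that line. The untreated SKOV3 libraries all stood apart in GC trend and in genes detected, so PAE cannot be told apart from that library difference. Removal of the trend takes out only the part that follows GC content and transcript length. Of the 10 genes, 8 rose and none fell at an adjusted p under 0.05. This stands beside a background in which 75.3% of the 17133 genes tested were called, 42.6% higher and 32.7% lower. Over the 10 genes the median log2 fold change was 1.51, against 0.48 over all genes tested, and library-size scaling moved these to 2.38 and 1.36. After removal of the trend 8 genes were called, 7 higher and WWTR1 lower, beside 51.4% of the 15090 genes that could be fitted. F3, LATS2, CCN2 and ANKRD1 were higher in both fits, as were CCN1 and AXL. Other fits lost some of these calls. DESeq2 did not call CCN1, CCN2 or AXL (adjusted p = 0.0983, 0.0711 and 0.27). With limma-voom CCN1 and CCN2 were not called (adjusted p = 0.109 and 0.0573). CCN1 and AXL were not called with the 6 libraries alone (adjusted p = 0.0808 and 0.163) or with the replicate block (0.0805 and 0.0611). AXL was also lost without a filter on low counts (0.0574). DESeq2 called 6 of the 10, 5 higher and AJUBA lower, beside 12893 genes in all (12895 in the main fit).

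Between the untreated lines, ANKRD1 was left out of the count, since its level in SKOV3/DDP chose the list. The untreated SKOV3/DDP libraries are also an arm of the contrast that chose the list. The lines differed as well in intestinal and ovarian markers and in the GC trend of their libraries. Cisplatin resistance cannot be told apart from these differences. Of the other 9 genes, CCN2, LATS2, AXL and YAP1 were higher and AJUBA was lower in SKOV3/DDP. In the background 81.8% of all genes tested were called, 45.8% higher and 36.0% lower, so the 5 of 9 were no larger a share than that of all genes. Over the 9 genes the median was 0.70 on the log2 scale, against 0.54 over all genes, and scaled by library size only these were 1.39 and 1.23. After removal of the trend, 6 of the 9 were called (4 higher and 2 lower) beside 70.5% of all genes. YAP1 was no longer among them, while CCN1 (higher) and WWTR1 (lower) were.

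The comparison of the PAE-treated lines has no untreated SKOV3 library in either arm. Of the 9 genes, 7 were lower in SKOV3/DDP (CCN1, AMOTL2, AJUBA, F3, AXL, YAP1 and WWTR1) and LATS2 was higher. The background was 54.5% of all genes tested, 27.5% higher and 27.1% lower, with a median log2 fold change of 0.06 against −1.65 over the 9 genes. The 8 calls stood in each of the 8 other fits, 1 of which used only the 6 PAE-treated libraries, and with the trend removed the background was 60.1%. This comparison and that of PAE in SKOV3 share the PAE-treated SKOV3 libraries, and the values of a gene in the 2 comparisons are not independent. Its other arm, PAE-treated SKOV3/DDP, is also an arm of the contrast that chose the list. The calls are therefore not independent of that choice, although ANKRD1 was left out.

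In SKOV3/DDP, the 3 PAE-treated libraries lay entirely below the 3 untreated libraries for 6 of the 10 genes (ANKRD1, CCN1, AMOTL2, AJUBA, AXL and WWTR1) and entirely above for none. Over all genes tested the same was true of 45.1% in either direction, 21.4% higher and 23.7% lower. CCN2, LATS2, F3 and YAP1 overlapped. The median on the log2 scale was −1.25 over the 10 genes, −1.01 without ANKRD1, and 0 over all genes. Since this contrast chose the list, nothing is read from the count. Scaled by library size only, the genes of the whole table without overlap split into 4776 higher and 3038 lower, against 3659 and 4062 with TMM factors, and the same 6 of the 10 were lower.

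**Figure D3:**
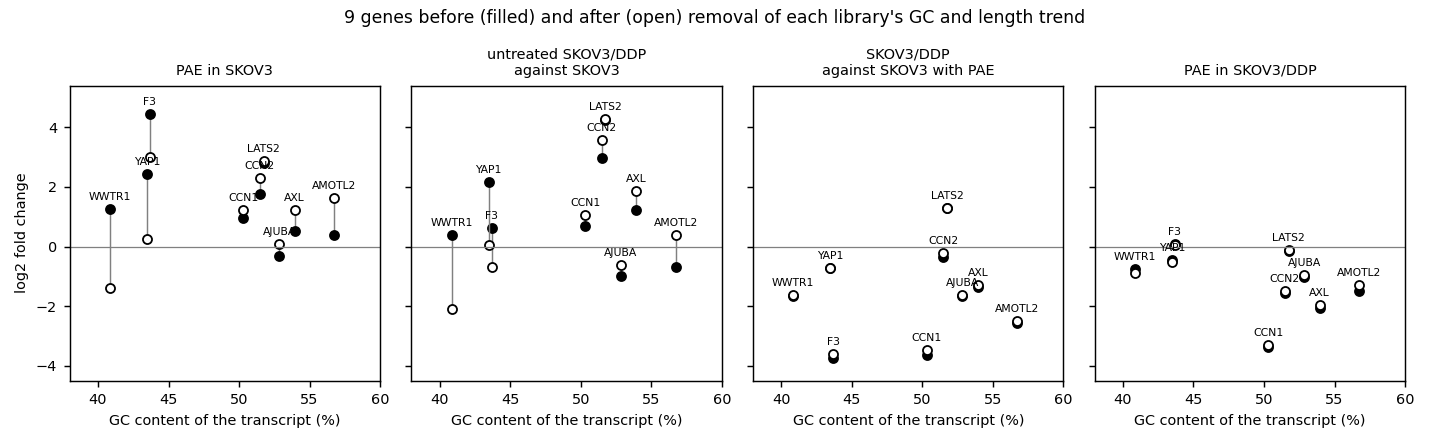
Log2 fold change (vertical axis) of 9 genes, without ANKRD1, against the GC content of the transcript in percent (horizontal axis), in the 4 comparisons. Filled points are the values as fitted and open points those with the GC and length trend of every library taken out. In the 2 comparisons with untreated SKOV3 the points of WWTR1, YAP1 and F3 (40.9% to 43.7% GC) moved down and those of AMOTL2 (56.7% GC) up, while in the other 2 comparisons the points nearly coincide.

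Other genes of the pathway were taken from 5 lists. Their counts stand beside the shares of all genes called higher and lower, which were 42.6% and 32.7% with PAE in SKOV3, 45.8% and 36.0% between the untreated lines, 27.5% and 27.1% between the PAE-treated lines, and, without overlap, 21.4% and 23.7% with PAE in SKOV3/DDP. Medians of a list are given in this order of comparisons, in which the medians of all genes were 0.48, 0.54, 0.06 and 0 on the log2 scale. In the 2 comparisons with untreated SKOV3, removal of the GC and length trend changed the sign of many of their calls, while DESeq2 and library-size scaling changed the sign of none. In the other 2 comparisons none of these settings changed the sign of any gene called.

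The list of TEAD factors and VGLL cofactors had 8 genes, of which VGLL1 and VGLL2 did not pass the filter on low counts. The medians of the other 6 were −1.34, −0.90, −0.24 and −0.77. TEAD1 stood at 17.4 ± 9.10 CPM (SD, n = 3) in SKOV3, 226 ± 21.9 in SKOV3 with PAE, 497 ± 50.3 in SKOV3/DDP and 234 ± 38.7 in SKOV3/DDP with PAE. TEAD2 had 147 ± 4.74, 30.0 ± 9.88, 22.6 ± 6.06 and 8.78 ± 1.36 CPM in the same order. TEAD1 thus stood lowest and TEAD2 highest in untreated SKOV3. With PAE in SKOV3, 2 of the 6 genes rose (TEAD1 by 3.70 and VGLL3, a cofactor that binds TEAD, by 4.89 on the log2 scale) and 3 fell, among them TEAD2 (−2.29) and TEAD4 (−2.46). After removal of the trend these were 1.02, 1.73, −0.47 and 0.18, so TEAD4 changed sign. Between the untreated lines TEAD1 was higher in SKOV3/DDP (4.83; 2.24 with the trend removed) and 4 genes were lower, among them TEAD2 (−2.70; −0.94), TEAD3 (−1.21; 0.70) and TEAD4 (−0.92; 1.62). Between the PAE-treated lines TEAD3 (1.04, SE 0.23, adjusted p = 0.00131) and TEAD4 (1.08, SE 0.19, adjusted p = 0.000217) were higher in SKOV3/DDP, and TEAD2 (−1.77, SE 0.27, adjusted p = 5.33e-05) and VGLL3 (−6.26, SE 0.54, adjusted p = 1.99e-07) were lower. With PAE in SKOV3/DDP 4 of the 6 genes were lower without overlap, among them TEAD1 (−1.09), TEAD2 (−1.36) and TEAD4 (−0.46), and none was higher.

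**Figure D4:**
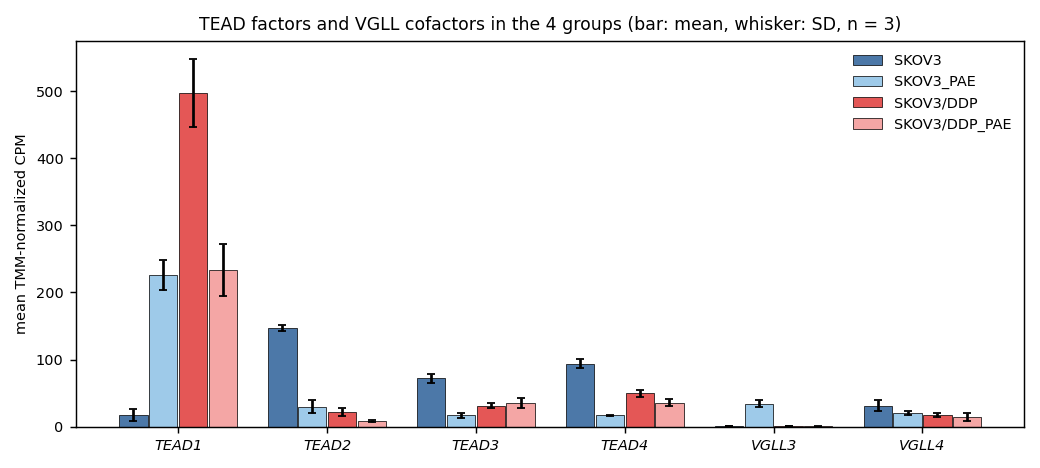
Mean TMM-normalized CPM (vertical axis, from 0) of the 6 TEAD and VGLL genes that passed the filter, in the 4 groups (colours). Whiskers are the SD (n = 3). TEAD1 ranged from 17.4 CPM in SKOV3 to 497 CPM in SKOV3/DDP, TEAD2, TEAD3 and TEAD4 were highest in SKOV3, and VGLL3 was above 2 CPM only in PAE-treated SKOV3.

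A further 15 signature genes of YAP and TEAD all passed the filter, with medians of 2.23, 1.13, −1.004 and −0.25. In SKOV3 treated with PAE, 10 rose and 4 fell. Those that rose most were RBMS3, an RNA-binding protein (log2 fold change 4.25; 1.08 with the trend removed), CRIM1, a transmembrane protein that binds BMPs (3.20; 1.80), the ligand TGFB2 (2.89; 0.12) and ASAP1, an Arf GTPase-activating protein (2.83; 0.77). Of these 14, 6 changed sign with the trend removed. Between the untreated lines 9 were higher and 5 lower in SKOV3/DDP, and 5 of the 14 changed sign. NT5E, the ectonucleotidase CD73, was higher (4.04; 2.59 with the trend removed), and TGFB2 (−3.96; −6.58) and IGFBP3, a binding protein of insulin-like growth factors (−4.31; −4.35), were lower. The forkhead factor FOXF2 had no counts in any SKOV3/DDP library, treated or not, and was at least 345-fold lower than in untreated SKOV3. Between the PAE-treated lines 4 were higher and 9 lower, with IGFBP3 (−8.18), TGFB2 (−6.62) and RBMS3 (−3.33) lowest beside FOXF2, at least 216-fold lower. With PAE in SKOV3/DDP 8 of the 15 were lower without overlap and none higher. Among these were FJX1, a secreted kinase-like protein (−1.98), MYOF, a ferlin of membrane repair (−1.89) and NT5E (−1.34).

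The Hippo kinase core and its regulators, 24 genes, all passed the filter, with medians of 2.17, 1.98, 0.11 and 0.19. After PAE in SKOV3, 17 rose and 5 fell, and 5 of these 22 changed sign with the trend removed. WWC2 of the KIBRA family (4.03; 1.69 with the trend removed), the STRIPAK scaffold STRN (3.97; 0.72), FRMD6 (3.94; 1.11) and the MST1 kinase gene STK4 (3.46; 1.20) rose most. Between the untreated lines 16 were higher and 6 lower in SKOV3/DDP, and 5 changed sign. The kinase cofactor MOB1B (3.56; 0.44) and STRN3 (3.20; 0.88) were higher, and RASSF1, a scaffold of MST kinases (−4.27; −2.11), and the kinase TAOK2 (−3.25; −1.77) were lower. Only 8 of the 24 were called between the PAE-treated lines, 2 higher and 6 lower, a share below that of all genes. They included MOB1B (1.22), FRMD6 (−3.35), the angiomotin AMOTL1 (−2.77) and RASSF1 (−1.46). In SKOV3/DDP with PAE, 10 were higher and 3 lower without overlap, among them STRN (1.00) and SIKE1 (0.84) of the STRIPAK phosphatase complex, which acts against MST kinases, and AMOTL1 (−2.55) and WWC1, which encodes KIBRA (−1.05).

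SRF with its MRTF cofactors shares cytoskeletal targets with YAP, and 10 of the 12 genes of that list passed the filter (CNN1 and ACTG2 did not), with medians of −1.06, −0.40, −0.20 and −0.83. In SKOV3 with PAE, 2 rose and 5 fell: SRF itself (−2.64; −0.74 with the trend removed), the tropomyosin TPM2 (−2.29; −0.75), filamin A, FLNA (−2.11; −0.35), and the calponin CNN2 (−2.08; −0.40) fell most, and 2 of the 7 changed sign with the trend removed. Between the untreated lines 4 were higher and 4 lower, and 4 of the 8 changed sign. TPM2 (−3.12; −1.55), SRF (−2.88; −1.15) and TAGLN (−1.46; −0.16) were lower, and TPM1 was higher (1.57; −0.13). In the PAE-treated lines 3 were higher and 3 lower, with ACTA2 (2.01), TPM2 (−1.80), TAGLN (−1.53) and vinculin, VCL (−1.35) leading. In SKOV3/DDP with PAE, 7 of the 10 were lower and 2 higher without overlap, led by the myosin light chain MYL9 (−1.99), VCL (−1.08), the LIM protein FHL2 (−1.08) and TPM2 (−0.96).

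AP-1, the dimer of FOS and JUN proteins, binds beside TEAD at many YAP targets, and all 8 of its subunit genes passed the filter, with medians of 0.57, 0.88, 0.18 and 0.17. With PAE in SKOV3, 3 rose and 2 fell: FOSB (3.47; 5.04 with the trend removed) and FOS (3.39; 4.34) rose, although their libraries overlapped between the groups, and JUNB (−2.35; 0.43) and JUND (−2.12; 0.73) changed sign with the trend removed. Between the untreated lines FOS (4.53; 5.57) and FOSB (3.75; 5.19) were among 3 higher genes, and JUNB (−5.44; −2.72) and JUND (−2.55; 0.03) were the 2 lower genes. Of the 8, JUNB alone was called between the PAE-treated lines (−2.30, SE 0.47, adjusted p = 0.000815). In SKOV3/DDP none of the 8 was without overlap in either direction, and their log2 fold changes ranged from −0.26 to 0.79.

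The 5 genes whose pattern over the 12 libraries was most like that of ANKRD1 were found among the 11457 genes that averaged 10 CPM or more in some group, by the root mean square difference of centred log2 CPM. They were LOC105369370 (a difference of 0.72), ANGPT1, the angiopoietin ligand (0.78), TMEM139 (0.99), LOC101927069 (1.00) and ACTBL2, an actin-like gene (1.01). ANGPT1 had mean levels of 0.12 CPM in SKOV3, 1.60 in SKOV3 with PAE, 17.2 in SKOV3/DDP and 1.62 in SKOV3/DDP with PAE. None of the other 9 genes of the list was close in this ranking: AXL was nearest, at rank 610 (1.65), then CCN2 at 682, and F3 was farthest, at rank 8178 (2.75). The measure describes these libraries and carries no test.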

How the data were processed

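Per the file headers, the tables deposited hold unnormalized integer counts at 47219 loci on GRCh38, 1 table for each library. The submitters' processing notes name HISAT2 2.0.5, StringTie 1.3.3b, DESeq2 and edgeR without their roles. The counting program, its strand setting and the annotation release are not given in the sources used here. The 869 loci without a gene name, with 0.126% to 0.678% of the counts, were left out.

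Counts were analysed in R 4.3.3 with edgeR 4.0.16: filterByExpr left 17133 genes, TMM factors were applied, and 1 fit of all 12 libraries gave quasi-likelihood tests with Benjamini-Hochberg adjustment at 0.05. CPM are TMM-normalized. SE were derived as |log2 fold change|/√F. Folds against a group without counts use 3 counts over that group and cover counting error only. GC content came from GENCODE 29 (88.1% of the genes tested), and length was the gene length given with the deposited counts. The trend was removed with splines of 5 degrees of freedom. The alternatives were DESeq2 1.42.0, limma-voom (limma 3.58.1), other scaling and filters, the 6 libraries compared alone, a replicate block, and each library left out. The tests were tested on simulated data. Within each group, no library was a duplicate of another. Libraries of different groups were not compared in this way.

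The members, the lists and the tests were chosen with earlier results of these data known. From each list and comparison, up to 4 called genes were named, those with the largest change and 5 CPM or more in the higher group, and the 5 genes most like ANKRD1. One result that the rule takes is not reported here.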

Additional observations from a re-analysis of the deposited data

Results flagged for a closer look

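Among the 10 genes and the list genes taken by the naming rule, there were 14 with opposite directions with PAE in SKOV3 and in SKOV3/DDP. In these the 3 treated libraries lay above the 3 untreated in 1 line and below them in the other. The share of all genes with this pattern was not counted, so nothing is read from the 14. Of the 17133 genes tested, 75.3% were called with PAE in SKOV3, and 45.1% were without overlap in SKOV3/DDP. The difference between the lines was not tested, because the SKOV3/DDP contrast chose the genes and the SKOV3 contrast uses the untreated SKOV3 libraries that stood apart. Among the 10 YAP and TEAD genes these were ANKRD1, with a fitted log2 fold change of 7.86 in SKOV3 and −5.66 in SKOV3/DDP, and WWTR1, with 1.26 and −0.77. The 7.86 of ANKRD1 depends on the prior count, since untreated SKOV3 had no counts. The bound is at least 20.1-fold and covers counting error only, without the GC trend. The SKOV3 value of WWTR1 was −1.38 after removal of the GC and length trend. Among the named genes of the other lists, with the SKOV3 value given before the SKOV3/DDP value, they were ACTA2 (−1.52 and 0.74), AMOTL1 (2.31 and −2.55), CRIM1 (3.20 and −0.92), IGFBP3 (2.66 and −1.21), MYOF (2.41 and −1.89), NT5E (0.83 and −1.34), SRF (−2.64 and 0.93), TAOK2 (−2.40 and 0.45), TEAD1 (3.70 and −1.09), TPM1 (1.12 and −0.85), VCL (1.44 and −1.08) and VGLL3 (4.89 and −1.38). The SKOV3 values of VCL and TPM1 and that of NT5E changed sign with the trend removed. No group had the 4 or more libraries needed to look for outliers.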

How the results depend on the processing

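The values that depended least on the processing were those between the PAE-treated lines, where 8 of 9 genes were called in each of the 8 other fits. That comparison shares its PAE-treated SKOV3/DDP libraries with the contrast that chose the list. The number of genes called with PAE in SKOV3 was 12895, and 7750 with the GC and length trend removed. Requiring 10 counts or more in every library, which removed ANKRD1 and tested fewer genes, called 8998 genes between the untreated lines (14010 before) and 5486 between the PAE-treated lines (9346 before). Without any filter on low counts, 8 of the 9 genes were called between the untreated lines in place of 5. All genes called in that comparison ranged from 8998 to 15473 over the 8 other fits. Nothing is read from the 8 of 9, and the cause was not tested.

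Signs changed in these cases. With the trend removed, AJUBA (0.087) and WWTR1 (−1.38) changed with PAE in SKOV3, and AMOTL2 (0.40), F3 (−0.68) and WWTR1 (−2.10) between the untreated lines. Scaled by library size only, AJUBA was 0.56 with PAE in SKOV3 and LATS2 was 0.022 with PAE in SKOV3/DDP. With each library left out in turn, CCN2 ranged from −0.75 to 0.14 between the PAE-treated lines (0.14 without PAE-treated SKOV3 replicate 1) and from −2.002 to 0.0056 with PAE in SKOV3/DDP, and F3 ranged from −0.060 to 0.35 there. The genes called with PAE in SKOV3 ranged from 5 to 7 of 10 over these fits, against 8 with all libraries. All genes called ranged from 12372 to 13173. The count was 5 of 10 without SKOV3 replicate 2 or 3, which ended the calls of CCN1, CCN2 and AXL.

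The replicate numbers did not pair the libraries: correlations of same-numbered deviations averaged −0.09 to 0.05 per pair of groups, and single values ranged from −0.22 to 0.16. The fit with the replicate number as a replicate block called 6 of 10 genes with PAE in SKOV3, 6 of 9 between the untreated lines and 8 of 9 between the PAE-treated lines. With PAE in SKOV3 it called 12701 genes in all. Over the 8 other fits, this 1 included, all genes called ranged from 8998 to 15473 between the untreated lines. Between the PAE-treated lines they ranged from 5486 to 10252. Depth limits ANKRD1 most, at 97 counts over the PAE-treated SKOV3 libraries and 34 over the PAE-treated SKOV3/DDP libraries.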
